A study of Mus musculus with 16 samples.

Results

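RNA levels of 10 genes of the FOXO, muscle atrophy and energy stress pathways were followed in 16 RNA-seq libraries of C2C12, an established line of mouse myoblasts whose cells fuse to myotubes once growth serum is replaced. The genes were taken by name from the 49585 genes counted: the transcription factors *Foxo1*, *Foxo3* and *Foxo4*, the ubiquitin ligases *Fbxo32* (atrogin-1) and *Trim63* (MuRF1), the secreted growth inhibitor *Mstn* (myostatin), the Kruppel-like factor *Klf15*, and the stress genes *Ddit4* (REDD1), *Sesn1* and *Gadd45a*. All 10 are protein-coding and had 1 row in each of the 2 count tables. On GRCm38 they lie at chr3:52268336-52353221 (*Foxo1*, plus strand), chr10:42181841-42276755 (*Foxo3*, minus), chrX:101254528-101260873 (*Foxo4*, plus), chr15:58175879-58214932 (*Fbxo32*, minus), chr4:134315120-134329629 (*Trim63*, plus), chr1:53061640-53068079 (*Mstn*, plus), chr6:90462576-90475238 (*Klf15*, plus), chr10:59949669-59951834 (*Ddit4*, minus), chr10:41809935-41908424 (*Sesn1*, plus) and chr6:67035096-67037457 (*Gadd45a*, minus). The first table held wild-type (WT) and AMPK-KO cells, with 2 libraries in each of 4 groups. They were taken at day 0 in growth medium (d0, myoblast stage) and after 8 days of differentiation in equine serum (d8, myotube stage). The stages are named as in the study, which reported that AMPK-KO cells wholly lost the ability to become myotubes. In AMPK-KO cells both catalytic subunits of the kinase AMPK, *Prkaa1* and *Prkaa2*, were disrupted with CRISPR. The study worked with independent AMPK-KO lines, grown from picked clones. An effect of a line and an effect of AMPK loss cannot be told apart when these cells are compared with WT cells. The labels do not say which line a library came from, or whether the libraries of a group came from separate cultures, so the p-values measure the spread between these libraries, which may be technical. The second table held knock-in cells labelled as day 0 myoblasts, all on the AMPK-null background. TET2-WT and TET2-S97E cells carried a FLAG-BirA tag and EGFP at the endogenous *Tet2* gene, and TET2-S97E cells also carried glutamate in place of the serine that AMPK phosphorylates. Each genotype had 2 clones with 2 libraries each, so a genotype was represented by 2 clones. Total counts ran from 17883417 to 24663079 per library in the first table and from 19801909 to 37790358 in the second.

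FOXO factors are held out of the nucleus when insulin or IGF signalling phosphorylates them through AKT, and enter it when that signal falls. In muscle they are known to switch on *Fbxo32* and *Trim63*, whose products mark muscle proteins for the proteasome, and AMPK can phosphorylate FOXO3 itself. Myostatin and glucocorticoids feed into the same programme, *Klf15* being a glucocorticoid target, while the products of *Ddit4* and *Sesn1* restrain the growth kinase mTORC1 and *Gadd45a* is induced by DNA damage and other stress.

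The promoters of 3 of the genes whose RNAs changed, or whose groups separated, in the results that follow are shown. *Foxo1*, *Foxo3*, *Klf15* and *Ddit4* also meet that description, and their windows were searched but are not shown. *Fbxo32* and *Foxo4* meet it too, but no window was found for them, so their promoters were not searched. RefSeq promoter windows on GRCm38.p6, from 250 bases before the transcription start and 50 from it on, were found for 8 of the 10 genes, and 2 of these windows belonged to *Sesn1*. They were searched on both strands for the FOXO motif GTAAACA, the E-box CANNTG that muscle regulators bind, a MEF2 motif of CTA and TAG with 4 bases between them, and a glucocorticoid response element of GNACA and TGTNC with 3 bases between them. The *Trim63* window (chr4:134314870-134315169, plus strand) held a glucocorticoid motif from base -208 to base -196 of the start and a FOXO motif, on the opposite strand, from base -194 to base -188. Both are in capitals in the first sequence, with 1 base between them. The first *Sesn1* window (chr10:41810324-41810623, plus strand) held a FOXO motif after the start, from base 23 to base 29, in capitals in the second. The *Gadd45a* window (chr6:67037358-67037657, minus strand) held neither, and its single E-box is in capitals in the third.
Trim63: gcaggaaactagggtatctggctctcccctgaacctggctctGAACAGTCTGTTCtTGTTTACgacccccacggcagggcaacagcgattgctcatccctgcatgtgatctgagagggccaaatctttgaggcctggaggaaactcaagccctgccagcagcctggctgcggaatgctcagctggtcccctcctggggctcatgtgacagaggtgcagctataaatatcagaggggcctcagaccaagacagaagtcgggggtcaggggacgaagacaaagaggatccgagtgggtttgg
Sesn1: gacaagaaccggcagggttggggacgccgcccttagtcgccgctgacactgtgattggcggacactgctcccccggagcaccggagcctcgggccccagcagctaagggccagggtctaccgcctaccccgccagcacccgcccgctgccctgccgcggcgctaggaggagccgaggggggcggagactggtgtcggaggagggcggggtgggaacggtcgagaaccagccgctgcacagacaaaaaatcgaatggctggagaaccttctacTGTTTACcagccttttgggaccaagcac
Gadd45a: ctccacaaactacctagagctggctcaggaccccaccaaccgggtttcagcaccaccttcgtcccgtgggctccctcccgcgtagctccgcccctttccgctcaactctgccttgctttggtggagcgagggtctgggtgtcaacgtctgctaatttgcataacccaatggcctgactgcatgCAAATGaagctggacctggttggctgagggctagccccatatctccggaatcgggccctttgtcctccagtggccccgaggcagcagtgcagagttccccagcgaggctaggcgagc
*Trim63* also held 3 E-boxes, *Klf15* 3 and *Mstn* 4, *Foxo1* held 1, and the windows of *Foxo3* and *Ddit4* held no match to any of the 4 motifs. No match shared a base with a match of another motif. Of 32841 promoter windows in the table, 3.65% held the FOXO motif, 72.3% an E-box, 3.69% the MEF2 motif and 0.475% the glucocorticoid motif, and 5 windows held both the FOXO and the glucocorticoid motif. A match is a run of letters and not a measured binding site.

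The edited genes were read first. *Prkaa1* (AMPK alpha 1) stood at 158 and 158 CPM (counts scaled to 1 common library total, each table on its own) in the WT d0 libraries against 79.6 and 78.0 in AMPK-KO, and at 126 and 125 against 83.3 and 82.4 at d8. The AMPK-KO minus WT log2 difference was -1.01 at d0 (edgeR's quasi-likelihood test with Benjamini-Hochberg adjustment over all genes tested, adjusted p = 0.0116) and -0.60 at d8 (adjusted p = 0.0419). *Prkaa2* (AMPK alpha 2), a low gene here, stood at 6.22 and 10.1 CPM in WT and at 1.26 and 0.825 CPM in AMPK-KO at d8, a log2 fold change of -2.96 in edgeR (adjusted p = 0.0190). *Prkaa1* was edited with a knockout plasmid and a homology-directed repair plasmid and *Prkaa2* with a guide RNA to 1 exon, and counts over a whole gene do not show whether its protein was lost. In the second table *Prkaa1* ran from 73.1 to 104 CPM over all 8 libraries. *Tet2* ran from 22.6 to 58.4 CPM in TET2-WT and from 7.88 to 22.0 CPM in TET2-S97E, without overlap, at a log2 fold change of -1.29 that edgeR did not call (adjusted p = 0.366).

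Muscle and proliferation markers set the libraries apart, not always along their labels. The summed level of 16 muscle markers was 1545 and 2119 CPM in WT d0, 994 and 1225 in AMPK-KO d0, 9848 and 14224 in WT d8, and 3564 and 15159 in AMPK-KO d8. *Des* (desmin) led the list at d0, and *Acta1* (skeletal actin) led it at d8 except in AMPK-KO d8 replicate 1, whose muscle RNA was far below that of its partner. In the knock-in table the sum ran from 903 to 1495 CPM in TET2-WT, with *Myh4* and *Tnnc2* at 0 in all 4 of its libraries and *Actn2*, *Myh8* and *Myh1* at 0 in 3, 2 and 1 of them, and was 9736 and 4667 CPM in TET2-S97E clone 1 and 3269 and 1191 CPM in clone 2. The sum of 9 proliferation markers was 1295 to 2343 CPM over the 4 d0 libraries of the first table and 207 to 475 CPM at d8. The 8 knock-in libraries, labelled day 0, ran from 174 to 733 CPM, below every d0 library of the first table, although levels across separately scaled tables were not tested. In bulk RNA, fewer cells of a type and less RNA per cell cannot be told apart. Markers of other cell types were low or shared with muscle cells. The 6 adipocyte markers summed to 8.25 to 38.0 CPM, nearly all of it *Pparg*, with *Lep* and *Cidec* at 0 in all 16 libraries. The 6 macrophage markers summed to 1.64 to 8.31 CPM with *Adgre1* at 0 throughout. The 5 endothelial markers summed to 1.20 to 13.03 CPM, mostly *Tek*, except in TET2-S97E clone 1 replicate 2, where *Cdh5* led. Fibroblast markers, which C2C12 cells also make, were led by *Col3a1* and summed to 2265 to 16557 CPM.

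Levels were compared between genes per length of transcript. In WT d0 cells *Gadd45a* averaged 106 ± 51.2 (SD, n = 2) TPM (a share of all transcripts, corrected for their length), followed by *Ddit4* at 78.8 ± 32.7, *Sesn1* at 38.9 ± 10.8, *Foxo4* at 32.3 ± 2.63, *Foxo3* at 31.1 ± 6.03, *Fbxo32* at 23.4 ± 6.16 and *Foxo1* at 8.65 ± 4.45. *Trim63*, *Klf15* and *Mstn* stood under 1 TPM. Neighbours in this order overlapped between libraries except *Ddit4* against *Sesn1*, *Fbxo32* against *Foxo1*, and *Foxo1* against *Trim63*. At d8 *Gadd45a* led at 669 ± 287 TPM in WT and 761 ± 407 TPM in AMPK-KO. *Fbxo32* was the second of the 10 in WT d8 at 54.7 ± 2.79 TPM, where it overlapped with *Ddit4*, and the third in AMPK-KO d8 at 102 ± 1.52 TPM. *Foxo1* was the lowest of the 3 FOXO genes in all 8 groups, with 7.11 to 20.0 TPM against 27.2 to 52.1 TPM for *Foxo4* and 25.8 to 47.9 TPM for *Foxo3*. *Mstn* was below detection almost everywhere: 2 and 4 counts in the WT d8 libraries, 1 count in AMPK-KO d0 replicate 1 and 0 in the other 13 libraries, where 0 counts allow up to 3 counts (0.146 CPM in WT d0 replicate 1, counting error only). It passed the count filter in neither table and was not tested.

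**Figure D1:**
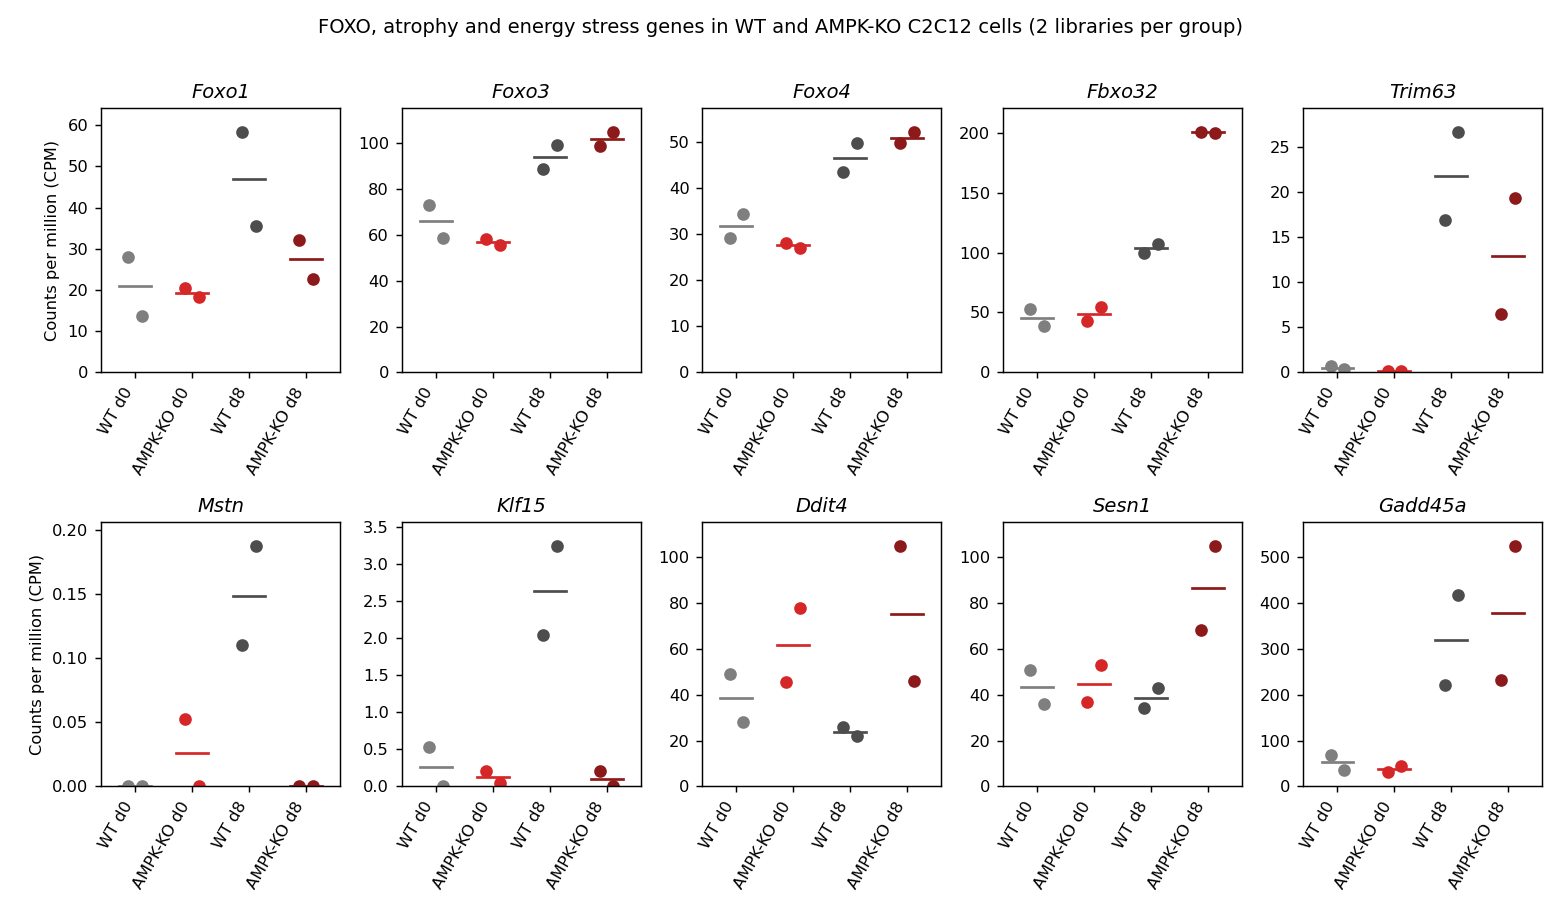
Scaled counts (CPM, linear axis from 0, own scale per gene) of the 10 genes in WT and AMPK-KO cells at d0 and d8; points are libraries and lines the mean of 2. *Fbxo32* stood at 99.5 and 108 CPM in WT d8 and at 201 and 200.4 CPM in AMPK-KO d8, while *Mstn* had at most 4 counts in any library.

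Differentiation was the first comparison, d8 against d0 within a genotype. In WT cells *Fbxo32*, *Trim63* and *Gadd45a* rose, 3 of the 9 members tested. Among all 14329 genes tested 12.4% were called in either direction and 5.78% higher. The median log2 fold change was 1.17 over the 9 members and 0.01 over all genes. In AMPK-KO cells the same 3 genes rose together with *Foxo3* and *Foxo4*, 5 of 9, where 9.76% of all genes were called and 4.81% were called higher. The median there was 0.89 over the members and 0.02 over all genes. edgeR called no member lower in either genotype after the count filter. Unadjusted p was under 0.05 for 7 of 9 members in WT and 6 of 9 in AMPK-KO. Over all genes the shares were 31.1% and 28.4%.

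*Trim63*, the muscle ligase that targets thick filament proteins, had the largest change of the 10. It stood at 0.675 and 0.325 CPM in WT d0 and at 16.8 and 26.6 CPM in WT d8, which are 14 and 6 counts against 306 and 567. In AMPK-KO it went from 0.105 and 0.187 CPM, on 2 and 4 counts, to 6.44 and 19.3 CPM. The groups did not overlap in either genotype, but the AMPK-KO d8 libraries stood well apart, with replicate 1 the lower, as it was for the muscle markers. The log2 fold change was 5.41 ± 0.69 (SE) in WT (edgeR, adjusted p = 0.0143) and 6.39 ± 0.78 in AMPK-KO (adjusted p = 0.0191), the latter resting on the few counts at d0. Its 300-base promoter window, alone among those of the 8 members that had one, pairs the glucocorticoid and FOXO motifs above. Whether these motifs bear on the rise was not tested.

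*Fbxo32*, the F-box subunit that brings substrates to its ubiquitin ligase, rose in both genotypes and to a higher level in AMPK-KO. It stood at 52.97 and 38.4 CPM in WT d0 and 99.5 and 108 CPM in WT d8. The AMPK-KO libraries had 42.5 and 55.0 CPM at d0 and 201 and 200.4 CPM at d8. The d8 libraries were thus above all 4 d0 libraries, and the AMPK-KO d8 pair was above the WT d8 pair, and its 2 libraries were alike in *Fbxo32* while far apart in muscle markers. The rise was 2.27-fold in WT (log2 1.18 ± 0.20, edgeR adjusted p = 0.0174) and 4.11-fold in AMPK-KO (log2 2.04 ± 0.21, adjusted p = 0.0179).

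*Gadd45a* had 68.8 and 35.7 CPM in WT d0 and 222 and 418 CPM in WT d8. In AMPK-KO it had 32.3 and 43.5 CPM at d0 and 232 and 524 CPM at d8. Replicate 2 was the higher of the d8 pair in both genotypes, and no d8 library came near a d0 library. The log2 fold change was 2.61 ± 0.52 in WT (edgeR, adjusted p = 0.0255) and 3.32 ± 0.54 in AMPK-KO (adjusted p = 0.0223). A noncoding gene, *E230016M11Rik*, overlaps 337 exonic bases of *Gadd45a* on the other strand. It had 104 counts in the whole first table, few beside those of *Gadd45a*. Genes on the other strand also overlap *Foxo1* (*Gm20402*, 674 exonic bases, 0 counts) and *Fbxo32* (*Gm15943*, 186 exonic bases, 7 counts). How reads in these shared stretches were counted is not known.

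Mean levels of *Foxo1*, *Foxo3* and *Foxo4* were also higher at d8 than at d0 in both genotypes. *Foxo3* stood at 73.2 and 58.6 CPM in WT d0 and 88.7 and 99.4 CPM in WT d8, and went from 58.1 and 55.4 to 98.9 and 105 CPM in AMPK-KO. *Foxo4* stood at 29.1 and 34.4 CPM in WT d0 and 43.4 and 49.7 CPM in WT d8, and went from 28.1 and 27.0 to 49.8 and 52.1 CPM in AMPK-KO. For both genes all d8 libraries were above all d0 libraries. In AMPK-KO the log2 fold changes were 0.84 ± 0.16 for *Foxo3* (edgeR, adjusted p = 0.0274) and 0.89 ± 0.16 for *Foxo4* (adjusted p = 0.0263). In WT they were 0.51 and 0.55, not called by edgeR (adjusted p = 0.0769 and 0.0687) but called by DESeq2 (adjusted p = 0.0419 and 0.0340), and the difference between the genotypes was itself not called (edgeR, adjusted p = 0.99994 for each). *Foxo1* had 27.96 and 13.8 CPM in WT d0 and 58.2 and 35.5 CPM in WT d8 against 20.3 and 18.4, then 32.0 and 22.8 CPM in AMPK-KO. Its libraries did not overlap between days, yet with log2 fold changes of 1.17 and 0.50 it was called in neither genotype (edgeR, adjusted p = 0.0927 and 0.432). In WT it passed in DESeq2 (adjusted p = 0.0244) and, with the replicate number as a block, in edgeR at a log2 fold change of 1.20 (adjusted p = 0.0243). Over all genes tested, the libraries of the 2 days did not overlap for 61.5% in WT and 59.1% in AMPK-KO.

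*Ddit4*, *Sesn1* and *Klf15* were not called between days by edgeR after the count filter. *Ddit4* had 48.9 and 28.2 CPM in WT d0 and 26.0 and 21.9 CPM in WT d8, and 45.4 and 78.0 CPM, then 105 and 46.1 CPM, in AMPK-KO. *Sesn1* had 50.7 and 36.0, then 34.0 and 42.8 CPM in WT and 36.9 and 52.8, then 68.2 and 105 CPM in AMPK-KO, a log2 fold change of 0.95 there (edgeR, adjusted p = 0.0893) that DESeq2 called (adjusted p = 0.0273). *Klf15* was near the floor everywhere but in WT d8, with 37 and 69 counts (2.04 and 3.24 CPM). It had 11 and 0 counts in WT d0, 4 and 1 in AMPK-KO d0, and 5 and 0 in AMPK-KO d8. The log2 fold change of *Klf15* was 3.25 ± 1.27 in WT, not called in edgeR (adjusted p = 0.135), and ran from 2.31 to 8.75 with 1 library left out. Without the count filter edgeR called *Sesn1* in AMPK-KO (adjusted p = 0.00165), *Klf15* in WT (adjusted p = 4.7e-04) and *Ddit4*, which then fell by 0.68 on the log2 scale, in WT (adjusted p = 0.0457). It then called 3293 genes in all in WT and 3039 in AMPK-KO, against 1771 and 1398 with the filter.

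The calls between days rested on few libraries, and leaving 1 out left its group with 1 library. Where *Fbxo32*, *Trim63* and *Gadd45a* lost their calls, almost no gene was called among all genes tested. Fewer genes were also called in AMPK-KO without a d8 library. The losses are thus not particular to these members. In WT the calls of *Fbxo32*, *Trim63* and *Gadd45a* were lost without WT d0 replicate 2, WT d8 replicate 1 or WT d8 replicate 2, with log2 fold changes that stayed within 0.98 to 1.41, 5.01 to 6.02 and 2.06 to 3.14 over all 8 libraries left out in turn. Their highest adjusted p in edgeR was 0.132, 0.115 and 0.149. In AMPK-KO they were lost without AMPK-KO d0 replicate 1 or replicate 2, with ranges of 1.85 to 2.25, 5.37 to 6.98 and 2.59 to 3.80 and adjusted p up to 0.124, 0.124 and 0.147. *Foxo3* and *Foxo4* were also lost there without any of the 4 d8 libraries, at 0.78 to 0.89 and 0.83 to 0.93 on the log2 scale (adjusted p up to 0.151 and 0.154). Without WT d0 replicate 1, *Foxo1* and *Foxo3* passed in WT cells as well, at log2 fold changes of 1.75 and 0.66 (adjusted p = 0.0359 and 0.0472). Without WT d8 replicate 1 *Foxo1* stood at 0.74, and without WT d0 replicate 2 *Foxo3* stood at 0.38, the lowest of their 8 values, with adjusted p of up to 0.382 and 0.368 in edgeR.

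Other genes of the pathways were read from 8 lists, the members left out. Of 112 distinct genes tested, 18 were called in WT (16.1%) and 17 in AMPK-KO (15.2%), beside the 12.4% and 9.76% of all genes. Among 18 further FOXO targets tested, 3 rose in WT and 4 in AMPK-KO, and none fell. *Cdkn1a*, the cell cycle inhibitor p21, rose by 1.88 in WT and 1.89 in AMPK-KO on the log2 scale, *Pink1*, a kinase of mitophagy, by 1.73 and 2.00, and *Map1lc3b*, of the autophagosome, by 0.97 and 1.05 (edgeR, adjusted p from 0.0149 to 0.0264). *Bcl2l11*, which promotes apoptosis, rose by 1.58 in AMPK-KO (adjusted p = 0.0227). Of 12 further atrophy ubiquitin ligases, the muscle-specific *Trim54* (3.53 and 4.34) and *Trim55* (1.46 and 1.48), close relatives of *Trim63*, rose in both genotypes, and the other 10 were not called. Of 16 genes of the insulin input, *Igf2* rose by 3.61 and 5.68, *Foxo6* by 1.21 and 2.998, *Igf1* in WT by 4.44, and *Akt2* (0.96) among 5 risen in AMPK-KO, while the adaptor *Irs1* fell by 1.11 on the log2 scale in WT. Among 9 further glucocorticoid genes, *Klf9* rose by 1.32 and 1.79 and *Cebpd* by 2.68 in WT. Of 17 further p53 and GADD45 genes, *Trp53* fell by 1.08 and 1.05 and *Bax* fell by 0.72 and 0.89 in WT and AMPK-KO, and *Eda2r* rose by 2.58 in AMPK-KO, where 3 of the 17 rose and 3 fell against 1 and 2 in WT. *Deptor* and *Tsc2*, of the mTORC1 brake list of 19, rose in WT (1.51 and 0.53), and *Fstl3*, a myostatin antagonist, rose by 1.22 in WT. *Klf5* and *Klf10* rose in WT (1.28 and 1.08). Median log2 fold changes of these 8 lists ran from 0.12 to 0.37 in WT and from -0.02 to 0.91 in AMPK-KO. The same comparisons called 11 of 15 muscle markers higher and all 9 proliferation markers lower in both genotypes. Of 6 fibroblast markers, *Dcn* (5.48), *Lum* (5.69), *Postn* (4.83) and *Col3a1* (1.65) rose in WT and *Dcn* (4.93) in AMPK-KO on the log2 scale. The part of these marker changes in the members' values was not tested.

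**Figure D2:**
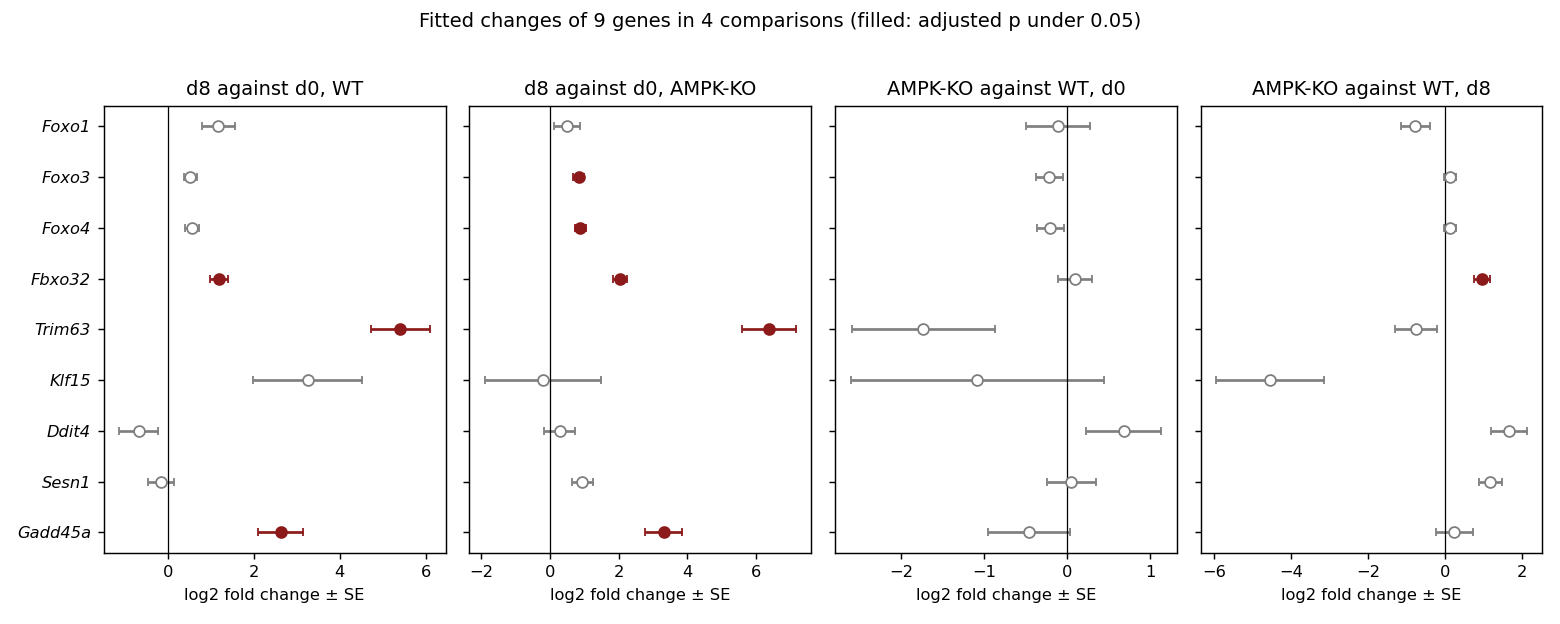
Fitted log2 fold change (x, own scale per panel) with its standard error for the 9 members tested, in 4 comparisons of the first table; filled points passed an adjusted p of 0.05 in edgeR. *Trim63*, *Gadd45a* and *Fbxo32* are filled in both panels of d8 against d0, and *Fbxo32* alone in AMPK-KO against WT at d8.

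AMPK-KO cells were then compared with WT cells at each day. At d0 no member was called of 9 tested, by edgeR or by DESeq2, where 3.52% of all genes were called, 100 higher and 405 lower. None of the 9 had an unadjusted p under 0.05, against 20.9% of all genes. *Trim63*, on 14 and 6 against 2 and 4 counts, had a log2 fold change of -1.73 ± 0.86 (edgeR, adjusted p = 0.308), called without the count filter (adjusted p = 0.0480). With 1 library left out it ran from -2.23 to -1.12 and was never called. *Ddit4* had 0.68 ± 0.45 with overlapping libraries. The other 7 lay between -1.09 and 0.09, the lowest being *Klf15*.

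At d8 *Fbxo32* was higher in AMPK-KO, 1 of 9 members, against 5.35% of all genes called and 1.36% called higher. The fold was 1.94 (log2 0.95 ± 0.20, edgeR adjusted p = 0.0434), near the threshold. The call was lost without AMPK-KO d0 replicate 1 or replicate 2, and without any of the 4 d8 libraries, while the log2 fold change stayed between 0.92 and 1.03 (adjusted p up to 0.233). It held in a fit of the d8 libraries alone. It was lost among genes with at least 10 counts in every library, where 277 genes were called in all against 766. Each fit that lost the call also called fewer genes in all. At d8, 4 of 9 members had an unadjusted p under 0.05 in edgeR, against 22.8% of all genes.

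Another 5 members had libraries that did not overlap at d8 without passing, *Sesn1*, *Ddit4*, *Klf15*, *Foxo1* and *Foxo4*. With *Fbxo32* these are 6 of 9 tested, and over all genes the libraries did not overlap for 57.9%. *Sesn1*, whose product holds mTORC1 back when amino acids are short, was at 34.0 and 42.8 CPM in WT and 68.2 and 105 CPM in AMPK-KO (log2 1.17 ± 0.30, edgeR adjusted p = 0.0734). *Ddit4* was at 26.0 and 21.9 CPM in WT and 105 and 46.1 CPM in AMPK-KO (log2 1.66 ± 0.46, adjusted p = 0.0904). *Klf15*, on the counts given above, had its highest level in WT d8 (log2 -4.54 ± 1.40, adjusted p = 0.114), and the fold change ran from -8.71 to -3.69 with 1 library left out. DESeq2 called these 3 along with *Fbxo32*, 4 of 9, where it called 1656 genes in all against 766 by edgeR. Without the count filter edgeR called these 4 and *Foxo1* (adjusted p = 0.0460 for *Foxo1*), where it called 2503 genes in all. Without AMPK-KO d8 replicate 2, edgeR called *Ddit4*, at a log2 fold change of 2.09 (adjusted p = 0.0428). Over the 8 libraries left out in turn it ran from 0.97, without AMPK-KO d8 replicate 1, to 2.09, with an adjusted p of up to 0.354 in edgeR. *Foxo1* was at 58.2 and 35.5 CPM in WT and 32.0 and 22.8 in AMPK-KO, lower in both AMPK-KO libraries (log2 -0.77 ± 0.38, edgeR adjusted p = 0.284), and *Foxo4* was slightly higher (0.13, adjusted p = 0.684). *Trim63*, *Gadd45a* and *Foxo3* overlapped between the genotypes, at -0.76, 0.24 and 0.11. For *Trim63* the log2 fold change ran from -1.78 to -0.15 with 1 library left out.

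Changes of the AMPK-KO effect between the days were then tested directly. edgeR called none of the 9 members and 0.0% of the 14329 genes, of which 729, or 5.09%, had an unadjusted p under 0.05, and DESeq2 called no member and 60 genes. *Fbxo32* (0.86 ± 0.29, adjusted p = 0.892) and *Sesn1* (1.12 ± 0.42, adjusted p = 0.951) were the 2 members under 0.05 unadjusted in edgeR. These contrasts share their libraries, so the d0, d8 and day comparisons are not independent of each other.

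Of 112 distinct further genes in the 8 pathway lists, 5 were called between WT and AMPK-KO at each day, or 4.46%, near the 3.52% and 5.35% of all genes. *Foxo6*, the remaining FOXO factor, was lower at d0 at 2.33 against 14.7 CPM (log2 -2.65 ± 0.33, edgeR adjusted p = 0.0114), the 1 call of 16 insulin input genes. *Ddit4l*, the paralogue of *Ddit4*, had 37 and 86 counts in WT d0 and 0 in both AMPK-KO libraries, at least 20.6-fold lower when AMPK-KO is set at 3 counts per library (adjusted p = 0.0309). At d8 *Ddit4l* had 63 and 230 counts against 1 and 0, a WT to AMPK-KO ratio of 340.1 (exact 95% interval 60.6 to 13477, counting error only, adjusted p = 0.0181). *Deptor*, which binds and inhibits mTOR, was lower at d8 at 110 against 453 CPM (log2 -2.05 ± 0.23, adjusted p = 0.00629). These 2 were the only calls among the 19 mTORC1 brake and sestrin genes at d8, and *Ddit4l* the only one at d0. *Fst*, the myostatin antagonist follistatin, had 622 and 59 counts in WT d0, far apart, against 1 and 2 in AMPK-KO, a ratio of 233 (exact 95% interval 79.2 to 1130.5, counting error only, adjusted p = 0.0497). *Klf4* was lower at both days (log2 -2.66 and -1.88) and *Klf6* at d0 (-1.19), and *Klf2* was lower at d8 (-3.07). *Stub1*, a chaperone-linked ligase, was higher at d8 (0.64, adjusted p = 0.0457), the 1 call of 12 atrophy ligases. *Fst* at d8 (-4.31, adjusted p = 0.0718) and *Igf1* (-3.96, adjusted p = 0.0846) were lower without passing. None of the 18 further FOXO targets, 9 glucocorticoid genes or 17 p53 genes was called at either day, the lowest adjusted p at d0 being those of *Pdk4* (2.08, 0.0605), *Tsc22d3* (-1.22, 0.111) and *Bax* (0.69, 0.0690) and at d8 those of *Cat* (-0.70, 0.0760), *Tsc22d3* (-1.001, 0.141) and *Bax* (0.53, 0.113). Medians of the 8 lists ran from -0.60 to 0.03 at d0 and from -0.42 to 0.17 at d8, against 0.00 and 0.04 over all genes. Muscle markers had a median of -3.29 at d0, with *Myog*, *Myod1* and *Mymk* called lower, and -0.83 at d8, with none of 15 called. Of 6 fibroblast markers *Col1a1* (-4.11) and *Lum* (-3.98) were lower at d8 in edgeR (adjusted p = 0.0223 and 0.0401). The part of these markers in the differences above was not tested.

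TET2-S97E knock-in cells were compared with TET2-WT cells, counts summed per clone so that each clone counted once. edgeR called no member of 8 tested and 0.0% of 15126 genes, of which 1575, or 10.4%, had an unadjusted p under 0.05, and DESeq2 called 1 member, *Trim63*, and 566 genes. *Klf15*, with at most 4 counts in a library, and *Mstn*, with 0 in all 8, did not pass the count filter.

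*Trim63* had the largest difference. Its libraries stood at 1.09, 0.741, 0.641 and 2.94 CPM in TET2-WT, in the order clone 1 and clone 2, and at 14.1, 20.2, 4.40 and 1.73 CPM in TET2-S97E. Clone 1 of TET2-S97E was above all TET2-WT libraries, and clone 2 overlapped with them. The log2 fold change was 2.87 ± 0.97 (edgeR adjusted p = 0.418), the 1 member with an unadjusted p under 0.05, and DESeq2 called it on all clones (2.89, adjusted p = 0.0230). Among 12 omissions of a library or clone, with log2 fold changes of 0.98 to 3.74, edgeR called it without TET2-S97E clone 2, at 3.67 (adjusted p = 0.0212), a fit in which the lone TET2-S97E clone is assumed to vary like the TET2-WT clones. Muscle markers were likewise highest in TET2-S97E clone 1, at 9736 and 4667 CPM, with a median log2 fold change of 4.34 between the genotypes and none of 13 called. Their part in *Trim63* was not tested.

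*Fbxo32* stood at 80.3, 67.4, 126 and 152 CPM in TET2-WT and at 220.3, 196, 100.2 and 146 CPM in TET2-S97E. The genotypes overlapped, with clone 1 the lower clone in TET2-WT and the higher one in TET2-S97E (log2 0.64 ± 0.40, edgeR adjusted p = 0.675). *Foxo1* stood at 20.3, 19.2, 21.7 and 32.8 CPM in TET2-WT and 22.2, 26.1, 42.7 and 50.8 CPM in TET2-S97E (log2 0.58 ± 0.36, adjusted p = 0.675). Here clone 2 of TET2-S97E was above all the other libraries. *Sesn1* was at 126, 117, 104 and 117 CPM in TET2-WT and 80.1, 84.5, 93.7 and 109 CPM in TET2-S97E, lower in 3 of 4 TET2-S97E libraries than in any of TET2-WT (log2 -0.34 ± 0.19, adjusted p = 0.638). *Ddit4*, *Foxo3*, *Foxo4* and *Gadd45a* had log2 differences of 0.01, -0.07, 0.14 and 0.18, with overlapping libraries.

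**Figure D3:**
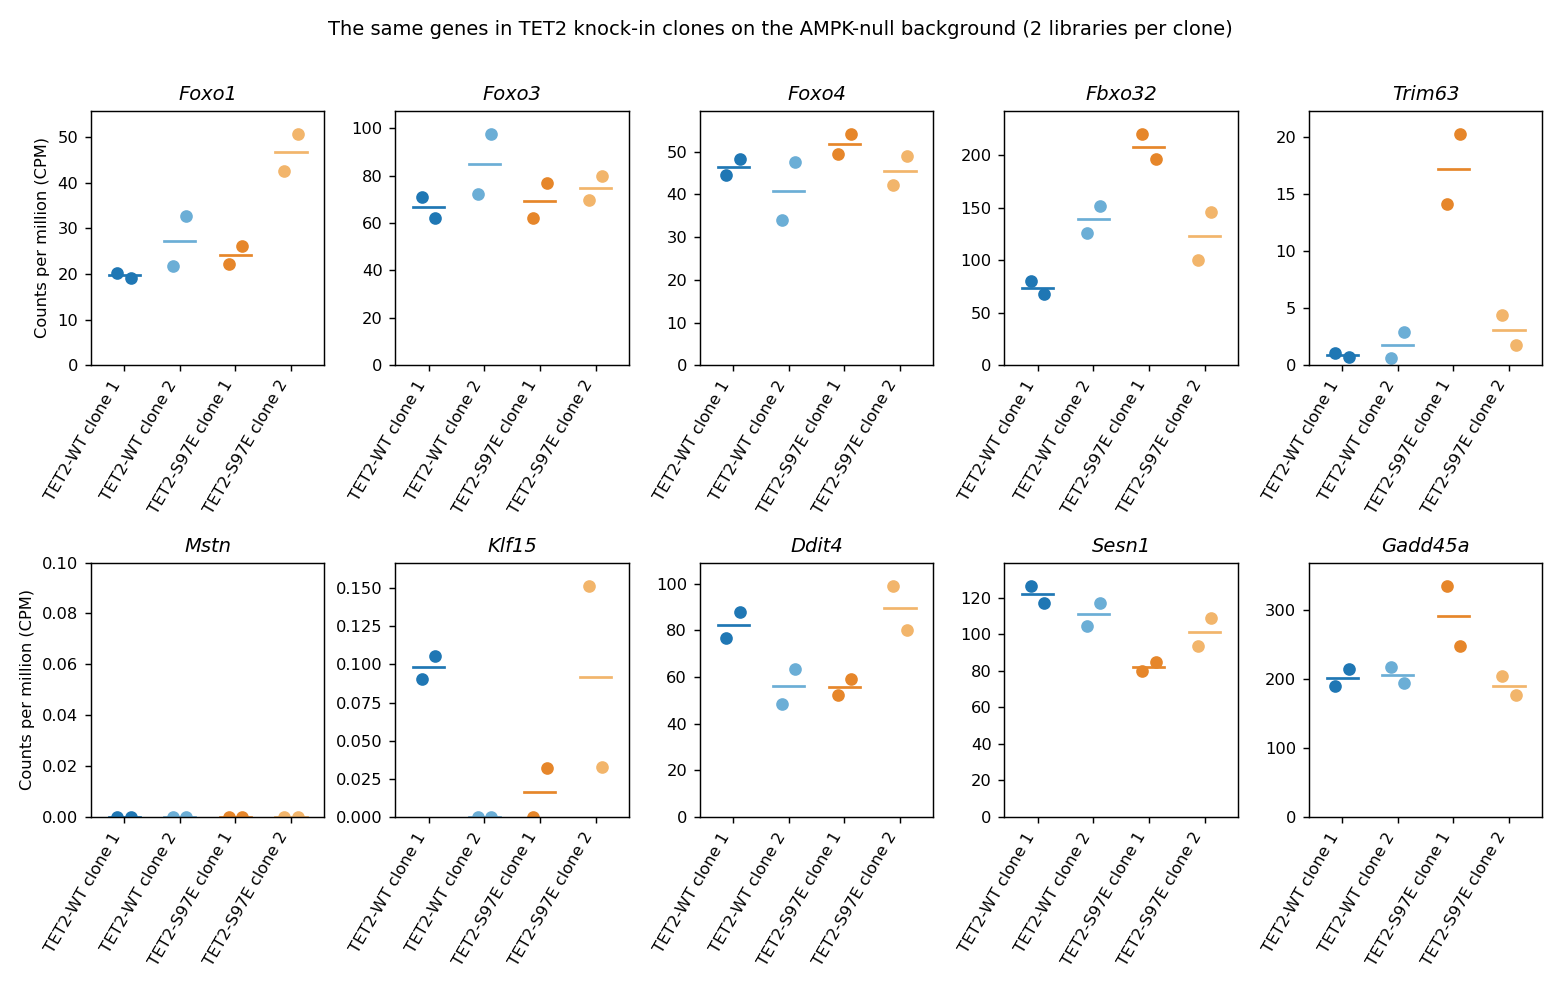
Scaled counts (CPM, linear axis from 0, own scale per gene) of the 10 genes in TET2-WT and TET2-S97E clones; points are libraries and lines the mean of the 2 libraries of a clone. *Trim63* stood at 14.1 and 20.2 CPM in TET2-S97E clone 1 and at 1.73 to 4.40 CPM in clone 2, and *Mstn* was 0 in all 8 libraries.

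Clones of 1 genotype were set against each other to show how far clones alone differ. These are not tests of the genotypes, but a genotype difference has to be judged against this spread between clones. Between the TET2-S97E clones *Foxo1* was higher in clone 2 (log2 0.95 ± 0.22, 1.93-fold, edgeR adjusted p = 0.0371) and *Trim63* lower (-2.51 ± 0.63, adjusted p = 0.0482), 2 of 8 members, where 6.17% of 14459 genes were called, 3.35% higher and 2.82% lower. *Foxo1* kept its call only without TET2-WT clone 2 replicate 1 or replicate 2, and *Trim63* also without TET2-S97E clone 2 replicate 1. The log2 fold changes stayed within 0.82 to 1.08 for *Foxo1* and -3.35 to -1.96 for *Trim63* (adjusted p up to 0.163 and 0.162). *Ddit4* (0.69), *Fbxo32* (-0.76) and *Gadd45a* (-0.62) had adjusted p of 0.0666, 0.0701 and 0.0939 in edgeR, and DESeq2 and the fit with a replicate block called all 3 as well (adjusted p = 0.0375, 0.0454 and 0.0492 with the block). They called 1383 and 1540 genes in all there, against 892 by edgeR without the block. In the fit without the block, unadjusted p was under 0.05 for 5 of 8 members and 19.5% of all genes.

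Between the TET2-WT clones edgeR called no member, against 0.858% of genes called. An unadjusted p under 0.05 was found for 2 of 8 members and 20.5% of all genes, and DESeq2 called *Fbxo32*. *Fbxo32* was higher in clone 2 (log2 0.91 ± 0.21, adjusted p = 0.0861), opposite in sign to the TET2-S97E clones. Without TET2-S97E clone 2 replicate 1 or replicate 2 it was called (lowest adjusted p = 0.0381), as it was with a replicate block (adjusted p = 0.0449).

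Of 111 distinct further pathway genes tested, 9 were called between the TET2-S97E clones, or 8.11%, beside 6.17% of all genes, and the glucocorticoid and mTORC1 lists held none of them. *Trim55* (log2 -3.10 ± 0.19, edgeR adjusted p = 1.2e-04) and *Fbxo40* (-5.89 ± 0.99, adjusted p = 0.00968), another muscle ligase, were lower in clone 2, the 2 calls of 12 ligases, as were *Myod1*, *Des* and *Myh3* of the muscle markers. *Igf2* (3.98) and *Igf1* (5.51) were higher in clone 2, with *Igf2* at 612 and 548 CPM there and 38.0 and 35.8 CPM in clone 1. *Bcl2l11* (-0.95) and *Bcl6* (-0.77) were lower in clone 2, and *Inhba*, *Gadd45g* and *Klf2* higher (1.57, 1.43 and 1.32). Of 6 fibroblast markers, at a median of 0.36, *Dcn* (1.92) and *Lum* (3.51) were called higher there too. The macrophage marker *Lyz2* was called higher, at 3.82 against 0.469 CPM, and the adipocyte marker *Fabp4*, at 1.23 against 0.0324 CPM. The endothelial marker *Cdh5* was called lower, at 0.0163 against 1.05 CPM. The part of these markers in the values above was not tested. Between the TET2-WT clones 1 of the 111 was called, *Bcl6*, which was higher in clone 2 (1.25 ± 0.17, edgeR adjusted p = 0.0160). Of 6 fibroblast markers *Postn* (3.69), *Col1a1* (2.91) and *Lum* (2.88) were called higher in that clone. The muscle marker *Myod1* (1.32) was also called higher there and the proliferation marker *Cdk1* (-1.13) lower. The part of these markers in *Bcl6* and *Fbxo32* was not tested. Between genotypes none of the 8 lists held a called gene, the lowest adjusted p being those of *Txnip* (-1.03, 101 against 200.3 CPM, adjusted p = 0.277) and *Eda2r* (1.43, 80.5 against 27.8 CPM, adjusted p = 0.277), both without overlap between libraries (14.8% of all genes had none), and *Sgk1* (-1.74, 77.2 against 252 CPM, adjusted p = 0.305).

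**Figure D4:**
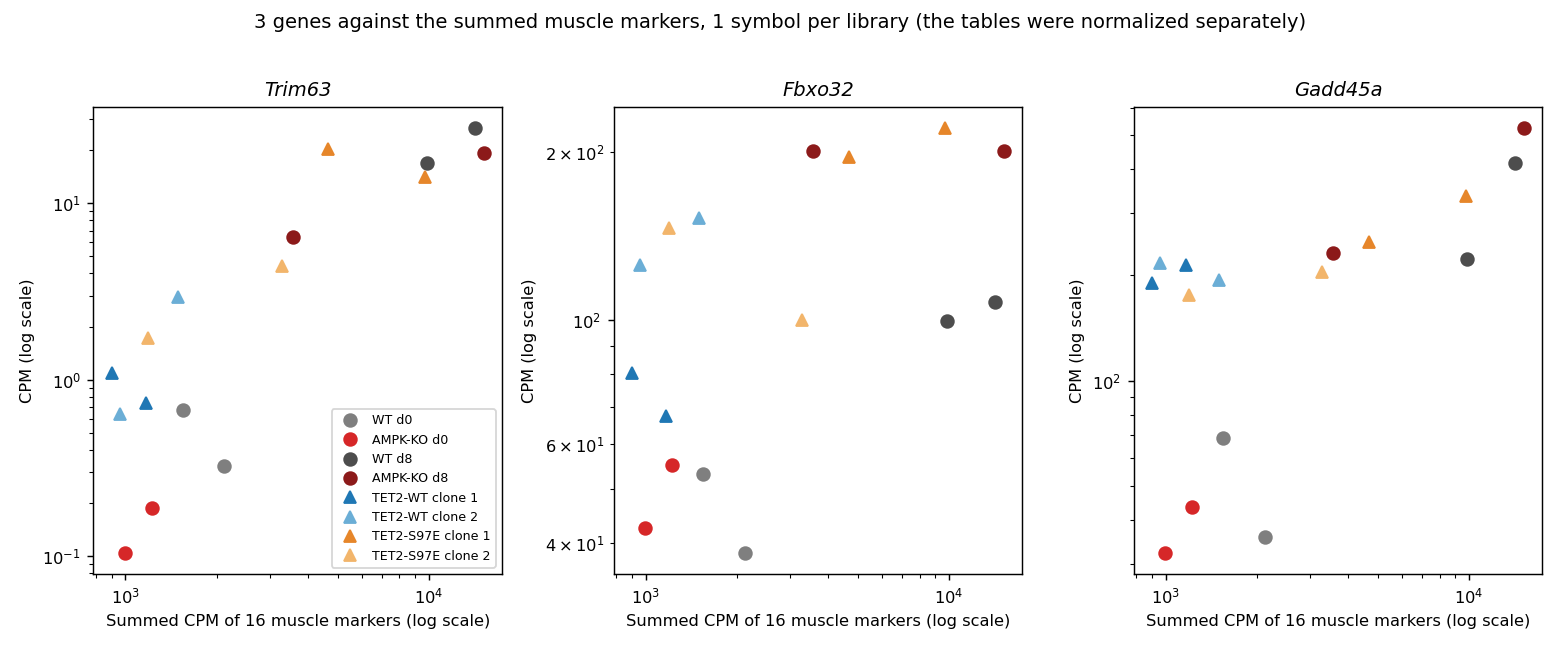
CPM of *Trim63*, *Fbxo32* and *Gadd45a* (y, log axis) against the summed CPM of 16 muscle markers (x, log axis), 1 symbol per library, circles for WT and AMPK-KO and triangles for the knock-in clones, each table scaled on its own. *Trim63* was at most 2.94 CPM in the libraries with sums up to 2119 CPM and at 4.40 to 26.6 CPM in those from 3269 CPM on, whereas *Fbxo32* at sums of 9848 and 14224 CPM in WT d8 lay below AMPK-KO d8 replicate 1 at 3564 CPM.

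Genes with the most similar pattern were found by Pearson's r of log2(CPM + 1) over the 8 WT and AMPK-KO libraries, among 13500 genes tested in both tables. The points share the 2 days and the 2 genotypes, so high r is common, and no p was computed. For *Trim63* they were *BC051019* (0.997), *Cdkn1a* (0.995) and *Itgb1bp2* (0.995), and over the 8 knock-in libraries r was 0.764, 0.934 and 0.675. For *Foxo4* they were *Ptgis* (0.984), the muscle creatine kinase *Ckm* (0.979) and the troponin *Tnnt1* (0.976), with 0.679, 0.423 and 0.554 in the knock-in libraries. *Fbxo32* was followed by *Plpp1* (0.992), *Laptm4a* (0.992) and *Dcaf5* (0.991), which came to 0.282, -0.909 and -0.519 in the knock-in libraries. *Gadd45a* was followed by *Hbp1* (0.995), *Ttc33* (0.991) and *Unc13b* (0.990), and *Klf15* by *Clic3* (0.994). Over the knock-in libraries these came to -0.379, 0.522, -0.228 and -0.300. *Foxo1* was nearest to *Tmem151a* (0.994), *Mtus2* (0.980) and *Nrip2* (0.970), and *Foxo3* to *App* (0.989), *Fam241a* (0.988) and *Dag1* (0.988), with -0.463, -0.214 and 0.700 for the first set and 0.139, -0.149 and -0.153 for the second in the knock-in libraries. *Ddit4* was nearest to *Zscan22* (0.968), *Rmdn2* (0.965) and *Zxdb* (0.962), and *Sesn1* to *D230017M19Rik* (0.953), *Olfr920* (0.950) and *Dnhd1* (0.949), with -0.542, 0.461 and 0.777, then 0.359, 0.875 and 0.154, in the knock-in libraries. Among the 36 pairs of members r ran from -0.64 to 0.97 in the first table and from -0.86 to 0.88 in the second. Of the 27 genes that this rule chose, 16 were also chosen with a pseudocount of 0.1.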

How the data were processed

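RNA-seq of ribosomal RNA-depleted total RNA from C2C12 cells was analysed from 2 tables of raw gene counts that the authors deposited without normalization, 1 per experiment. Per the labels and methods, the authors used bcl2fastq 2.17, Trim Galore 0.4.5, STAR 2.5.3a in two-pass mode and featureCounts 1.5.3 on GRCm38 with GENCODE M12. Strand and multiple alignments were not stated, so counts of overlapping genes are uncertain. Names and exon lengths came from GENCODE M21 (49326 of 49585 identifiers found). MeDIP-seq was not analysed here.

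Counts were tested in R 4.3.3 with edgeR 4.0.16 (TMM, filterByExpr, glmQLFit and glmQLFTest, Benjamini-Hochberg over all genes tested, threshold 0.05). The first table entered 1 model of 4 groups (biological coefficient of variation 0.281, 4 residual degrees of freedom). Genotypes of the second were compared on 4 clone sums (0.333, 2 residual degrees of freedom) and clones in a model of 4 clones (0.213). Standard errors came from the fold change and the F statistic. CPM used TMM-scaled totals of all genes, and TPM merged exon lengths. Replicates differed beyond sampling noise (chi-square per degree of freedom 29.4 to 107), so none was a duplicate. A fold against a group at 0 is a lower bound at 3 counts per library, a group with 1 to 3 counts was given a ratio with an exact counting interval, and list medians with such genes at their bounds changed only for marker lists. Alternatives were DESeq2 1.42.0, its size factors, other count filters, a replicate block, libraries of 1 day, limma-voom (limma 3.58.1) with clone as random effect, and libraries or clones left out.

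The members, lists and tests were chosen with earlier results of these data known, and a share of calls near the background is no result about the members. Named genes were the members, the edited genes, the up to 4 called genes with the lowest adjusted p of each list in a comparison (the lowest p where none was called), and the 3 genes most like each member. A few genes that this rule chose are not reported here.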

Additional observations from a re-analysis of the deposited data

Results flagged for a closer look

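*Foxo4* lay on opposite sides of WT at the 2 days, which marked it for a closer look: both AMPK-KO libraries lay below both WT libraries at d0 (28.1 and 27.0 against 29.1 and 34.4 CPM) and above both at d8 (49.8 and 52.1 against 43.4 and 49.7 CPM). The closest pair at d8 was 49.776 against 49.748 CPM. Over all genes the libraries of the 2 genotypes did not overlap for 49.4% at d0 and 57.9% at d8. The difference of the 2 effects was 0.33 on the log2 scale and was not called (edgeR, adjusted p = 0.99994), and neither effect was called on its own.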

How the results depend on the processing

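The groups are small: 2 libraries or 2 clones a group allow no exact two-sided test below p = 0.333, so calls rest on the spread shared over genes, and low counts limit *Klf15*, *Mstn* and *Trim63* at d0. Of 951 alternatives over 69 member log2 fold changes, 839 kept their direction and side of the threshold, 37 newly passed, 45 no longer passed and 30 reversed, all of the reversals on leaving out a library or clone. Among the other alternatives 336 were kept, 30 newly passed and 1 no longer passed, *Fbxo32* between genotypes at d8 among genes with at least 10 counts in every library, where 0 members were called (adjusted p = 0.0705 for *Fbxo32*). The cause of the changes was not tested.

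DESeq2 called 1393, 1656, 2762 and 2532 genes for the AMPK-KO effect at d0 and at d8 and for days in WT and AMPK-KO, 60 for the difference of the AMPK-KO effects, 566 for TET2-S97E, and 894 and 1383 between the clones of TET2-WT and TET2-S97E. With no filter on low counts the numbers were 2026, 2503, 3293, 3039, 449, 113, 1627 and 1680. Members called with DESeq2 were 4 at d8, 6 for days in WT, 6 for days in AMPK-KO with *Sesn1* added, 1 for TET2-S97E, and 1 and 5 between clones. With no filter they were 1 at d0, 5 at d8, 6 for days in each genotype, and 1 and 5 between clones. With at least 10 counts in every library 204 genes were called at d0 and 277 at d8, and 335 at d0 in the libraries of that day alone. For TET2-S97E against TET2-WT 938 genes were called on 8 libraries with genotype alone, 166 with limma-voom and clone as a random effect, and 895 with a replicate block.

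Replicate numbers are shared between groups in the labels. Replicate differences correlated at r = 0.129 to 0.392 between groups of the first table and at -0.0688 to 0.551 in the second, positive in all 6 pairs of groups of the first table and in 5 of 6 of the second. The labels name no shared batch or culture and each group has 2 libraries, so whether the numbers pair the libraries is not settled, and the fit without the block was kept as the main one. With the replicate block 677 and 1540 genes were called between the clones of TET2-WT and TET2-S97E, with 1 and 5 members, and 740, 1144, 2360 and 1854 genes for AMPK-KO at d0 and d8 and for days in WT and AMPK-KO, with 0, 1, 4 and 5 members. The block called *Foxo1* between days in WT and, between clones, *Fbxo32* in TET2-WT and *Fbxo32*, *Ddit4* and *Gadd45a* in TET2-S97E, none of them called without it.

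On leaving out each library or clone, genes called ranged from 17 to 613 and from 107 to 902 for AMPK-KO at d0 and d8, from 0 to 2260 and from 0 to 1737 for days in WT and AMPK-KO, from 0 to 6 for the difference, from 0 to 184 for TET2-S97E, and from 0 to 313 and from 472 to 1014 between the clones. Members called ranged from 0 to 1 at d8, 0 to 5 for days in each genotype, 0 to 1 for TET2-S97E, and 0 to 1 and 0 to 2 between the clones of TET2-WT and TET2-S97E.

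Log2 fold changes that reversed, none of them called in the full data, ranged for AMPK-KO against WT at d0 from -0.53 to 0.48 for *Foxo1*, -0.13 to 0.34 for *Fbxo32*, -2.40 to 4.43 for *Klf15*, -0.26 to 0.31 for *Sesn1* and -0.85 to 0.079 for *Gadd45a*, and at d8 from -0.50 to 0.78 for *Gadd45a*. Between days they ranged from -0.39 to 0.075 for *Sesn1* in WT, and in AMPK-KO from -4.39 to 1.08 for *Klf15* and -0.41 to 0.75 for *Ddit4*. For the difference of the effects the range was -0.045 to 1.60 for *Trim63* and -0.030 to 1.26 for *Gadd45a*. For TET2-S97E it was -0.23 to 0.14 for *Foxo3*, -0.32 to 0.34 for *Ddit4* and -0.14 to 0.46 for *Gadd45a*. Between the TET2-WT clones it was -0.45 to 0.032 for *Foxo4*, -0.48 to 1.70 for *Trim63* and -0.068 to 0.11 for *Gadd45a*, and between the TET2-S97E clones -0.039 to 0.27 for *Foxo3*. Leaving out mitochondrial genes kept 71 of 80 mean TPM values within 1 SD.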
